A study of Rattus norvegicus with 6 samples.

Results

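Complex I of the respiratory chain (NADH:ubiquinone oxidoreductase) is assembled from subunits of both genomes, and 7 of its core subunits are encoded in the mitochondrial DNA: Mt-nd1, Mt-nd2, Mt-nd3, Mt-nd4, Mt-nd4l, Mt-nd5 and Mt-nd6. Their transcripts were taken from the deposited table by Ensembl identifier, 7 of its 32883 genes, and all 7 had enough counts to be tested. The pairing of identifiers with names came with the selection of these genes and was not checked here, because no source used here pairs an identifier of the table with a symbol. In order of the names above the identifiers are ENSRNOG00000030644, ENSRNOG00000031033, ENSRNOG00000033615, ENSRNOG00000029707, ENSRNOG00000031053, ENSRNOG00000029971 and ENSRNOG00000029042. By these names all lie on the mitochondrial chromosome, which was not checked either. Positions, lengths and sequences are not given, as no annotation of the build named by the submitters, Rnor_6.0, was used here.

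The cells were rat vascular smooth muscle cells, which contract the vessel and, in culture, also divide and make matrix. Their polyadenylated RNA was sequenced in 2 groups of 3 samples. The sg-MIAT cells, whose genotype is labelled MIAT overexpression, carried a CRISPR-dCas9 system whose guide is meant to raise the long non-coding RNA MIAT. The sg-U6 cells, labelled WT, received a negative control guide. A control guide would mean that both groups carried the dCas9 system, which was not checked against the data. The sources used here do not give the kind of vessel, the animals, their age and sex, the activator joined to dCas9, the number of cell isolates or whether samples 1 to 3 were separate cultures. The spread behind each p-value is that of these samples and may be technical. In bulk RNA, fewer cells and less RNA per cell cannot be told apart.

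The mitochondrial genome is transcribed from both strands as long precursors that are cut into single messages, mostly at the transfer RNAs between them. The messages of Mt-nd1, Mt-nd2, Mt-nd3, Mt-nd4, Mt-nd4l and Mt-nd5 come from the heavy-strand promoter, and Mt-nd6 is the only messenger RNA read from the light-strand promoter. Mt-nd4l and Mt-nd4 share one bicistronic message. The proteins form the membrane arm of complex I, the part that pumps protons while electrons pass from NADH to ubiquinone, and smooth muscle cells use this chain alongside glycolysis.

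Total counts per library ran from 13128977 to 18257865, so the transcripts described here rested on 75 to 44200 counts each per sample. Over all genes sg-MIAT 1 and sg-U6 1 lay apart from the other 4 libraries on the first principal component (65.2% of the variance), at -59.9 and -69.7, with the others between 11.1 and 73.9. They also had the fewest genes detected, 15101 and 15528 against 15650 to 15794. Fold changes and group differences in shares are therefore also given without these libraries. MIAT itself and markers of smooth muscle or of other vessel cells were not analysed here, for lack of names, so neither the activation nor the cell type was checked against the data.

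The 7 transcripts together took 0.469%, 0.543% and 0.67% of each library with the MIAT guide (samples 1, 2 and 3), and 0.389%, 0.802% and 0.809% with the control guide. The lowest and the highest share both belonged to the control guide, and the groups overlapped. The mean share was 0.561% ± 0.101 with the MIAT guide and 0.667% ± 0.240 with the control guide (SD, n = 3 each), a difference smaller than the spread within the controls. The gap of -0.106 percentage points (MIAT guide minus control) became -0.199 without both samples numbered 1 and -0.0349 without sg-U6 3.

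No transcript of the set differed between the guides past the test. By the quasi-likelihood test of edgeR, Benjamini-Hochberg adjusted over 12044 genes, 0 of the 7 were called at an adjusted p under 0.05, beside 0% of all tested genes, and the adjusted p was 0.9995 for each of the 7. At an unadjusted edgeR p under 0.05 the count was also 0 of 7, where 3.96% of all genes passed. DESeq2, the tool in the submitters' notes, called 0 of 7 after adjustment, beside 0.443% of genes, and 1 of 7 (Mt-nd4l) at an unadjusted p under 0.05, beside 3.99%. The groups separated for 0 of the 7, beside 9.04% of all genes, so this count is near that background. Fitted values were lower in sg-MIAT for 6 of the 7, beside 54.6% of all genes, with a median log2 fold change of -0.33 (MIAT guide relative to control guide) against -0.03 over all genes. Blocked on the replicate number, edgeR called 0 of 7 beside 0% of genes, and DESeq2 0 of 7 beside 1.01%. At an unadjusted p under 0.05 each blocked fit had 1 of 7, Mt-nd4l. Over all genes, 918 of 12044 passed in blocked edgeR, against 477 without the block. In blocked DESeq2 948 genes passed, against 730 of 18313 without the block. The unadjusted p of Mt-nd4l was 0.0458 in blocked edgeR (adjusted p = 0.641) and 0.00479 in blocked DESeq2 (adjusted p = 0.215). Exact two-sided permutation tests of each transcript's log2 level gave p from 0.3 to 0.9, where 3 samples against 3 cannot go below 0.1.

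**Figure D1:**
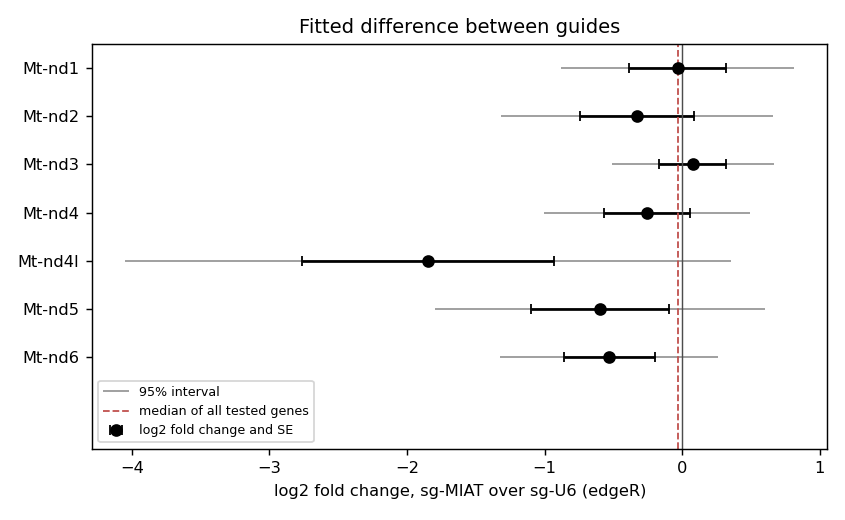
Fitted difference of each transcript on the log2 scale, MIAT guide over control guide, from the edgeR fit over all genes (points, with SE as bars and 95% interval as grey lines), beside the median of all tested genes (dashed). All 7 intervals include 0, and that of Mt-nd4l is the widest, from -4.05 to 0.35.

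Mt-nd1 forms the heel of the membrane arm where ubiquinone enters. Its level, as counts scaled to a library total of 1000000 after TMM adjustment (CPM), was 1995, 2097 and 2636 under the MIAT guide (samples 1, 2 and 3, the order used throughout) and 1275, 3033 and 2573 under the control guide. The 3 sg-MIAT values lay inside the range of the control values. Mean levels of 2243 ± 344 CPM (sg-MIAT) and 2294 ± 912 (sg-U6; SD, n = 3 each) nearly coincided, and the edgeR log2 fold change was -0.03 ± 0.35 (SE), with a 95% interval from 0.544-fold to 1.76-fold. The sign of so small a value was not stable: it became positive in limma-voom, with a block on the replicate number, and when sg-MIAT 1, sg-MIAT 2, sg-U6 2 or sg-U6 3 was left out.

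Mt-nd3 is a small subunit with a flexible loop beside the quinone site. It was measured at 1590, 1106 and 1258 CPM under the MIAT guide and at 1485, 1274 and 987 CPM under the control guide. The samples numbered 1 were the highest of each guide, the reverse of their place for Mt-nd1, Mt-nd2, Mt-nd4l and Mt-nd5. Mt-nd3 had the smallest range of the 7, 1.61-fold from lowest to highest, and an edgeR log2 fold change of 0.08 ± 0.24 (SE), with a 95% interval from 0.702-fold to 1.59-fold. Without sg-MIAT 1 that value was -0.09, and without sg-U6 3 it was -0.07.

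The antiporter-like subunits Mt-nd2, Mt-nd4 and Mt-nd5 each hold a proton channel of the membrane arm. Mt-nd2 was present at 1321, 1602 and 1965 CPM under the MIAT guide and at 962, 2555 and 2619 CPM under the control guide. The control group held both the lowest value and the 2 highest. Its edgeR log2 fold change was -0.33 ± 0.41 (SE), with a 95% interval from 0.402-fold to 1.58-fold. Single libraries moved it: it was -0.66 when sg-U6 1 was dropped, -0.21 for sg-MIAT 1, -0.13 for sg-U6 2 and -0.11 for sg-U6 3.

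Mt-nd5 carries the channel farthest from the quinone site. Its level was 295, 540 and 547 CPM under the MIAT guide and 299.8, 658 and 1132 CPM under the control guide. The samples numbered 1 were nearly equal and the lowest of their groups, and sg-U6 3 was the highest library. The sg-MIAT mean was 461 ± 144 CPM and the control mean 697 ± 418 (SD, n = 3 each), and the edgeR log2 fold change was -0.60 ± 0.50 (SE), with a 95% interval from 0.288-fold to 1.52-fold. Leaving out sg-U6 3 brought it to -0.06, leaving out sg-MIAT 1 to -0.37 and leaving out sg-U6 1 to -0.95.

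Mt-nd4 was measured at 30.6, 26.3 and 30.4 CPM under the MIAT guide and at 19.5, 43.9 and 40.7 CPM under the control guide. The sg-MIAT samples lay within a 1.17-fold range, the tightest of the 7 in that group, while the control samples spanned 2.25-fold and enclosed them. These levels rested on 277 to 664 counts per sample, against 13671 to 42728 counts for Mt-nd2. No length was used and the counting method is not given, so CPM are not compared between the genes. In sg-U6 3 Mt-nd4 had 664 counts and Mt-nd4l 1714. Why Mt-nd4 had so few counts was not tested, and its values may not reflect the full amount of its message. The edgeR log2 fold change was -0.25 ± 0.31 (SE), with a 95% interval from 0.499-fold to 1.41-fold. It became -0.53 when sg-U6 1 was left out, -0.05 on leaving out sg-U6 2, -0.12 for sg-U6 3 and -0.17 for sg-MIAT 2.

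Mt-nd4l and Mt-nd6 lie between the channels and the heel, along the path that couples quinone chemistry to pumping. Mt-nd4l had the widest spread of the 7: 6.42, 17.1 and 16.2 CPM under the MIAT guide and 7.04, 31.0 and 105.1 CPM under the control guide. From lowest to highest that is a 16.4-fold range, and 14.9-fold lay within the control group. The counts behind the extremes were 75 in sg-MIAT 1 (exact Poisson 95% interval 59.0 to 94.0) and 1714 in sg-U6 3 (1634 to 1797), intervals that cover counting error only. Its within-group SD on the log2 scale was 1.48, larger than that of 96.3% of the 12044 tested genes (median 0.37), whereas that of the other 6 ran from 0.28 to 0.77.

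Mt-nd4l averaged 13.2 ± 5.90 CPM with the MIAT guide against 47.7 ± 51.1 with the control guide (SD, n = 3 each), and the edgeR log2 fold change was -1.85 ± 0.92 (SE; unadjusted p = 0.0867, adjusted p = 0.9995), a fitted 3.60-fold lower level. A single library carried most of this: without sg-U6 3 the edgeR log2 fold change was -0.52 ± 0.70 (SE; adjusted p = 0.9992). DESeq2 gave -1.85 ± 0.83 (SE) with an unadjusted p of 0.0265 and an adjusted p of 0.757. The difference between guides was smaller than the 14.9-fold range within the controls.

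Mt-nd6, the light-strand message, was present at 31.7, 20.9 and 41.3 CPM under the MIAT guide and at 29.8, 52.5 and 53.3 CPM under the control guide. The 2 highest values were controls, while the third control lay among the sg-MIAT values. The averages were 31.3 ± 10.2 CPM with the MIAT guide and 45.2 ± 13.4 CPM with the control guide (SD, n = 3 each), with an edgeR log2 fold change of -0.53 ± 0.33 (SE; unadjusted p = 0.155, adjusted p = 0.9995) and a 95% interval from 0.400-fold to 1.20-fold. Over the fits that left out 1 library it ran from -0.78 without sg-MIAT 3 to -0.30 without sg-MIAT 2. No source used here says whether counting used the strand, so reads from Mt-nd6 and from heavy-strand RNA antisense to it cannot be told apart. In human cells its message is known to carry little or no poly(A) tail; how oligo(dT) selection bore on it here was not tested.

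**Figure D2:**
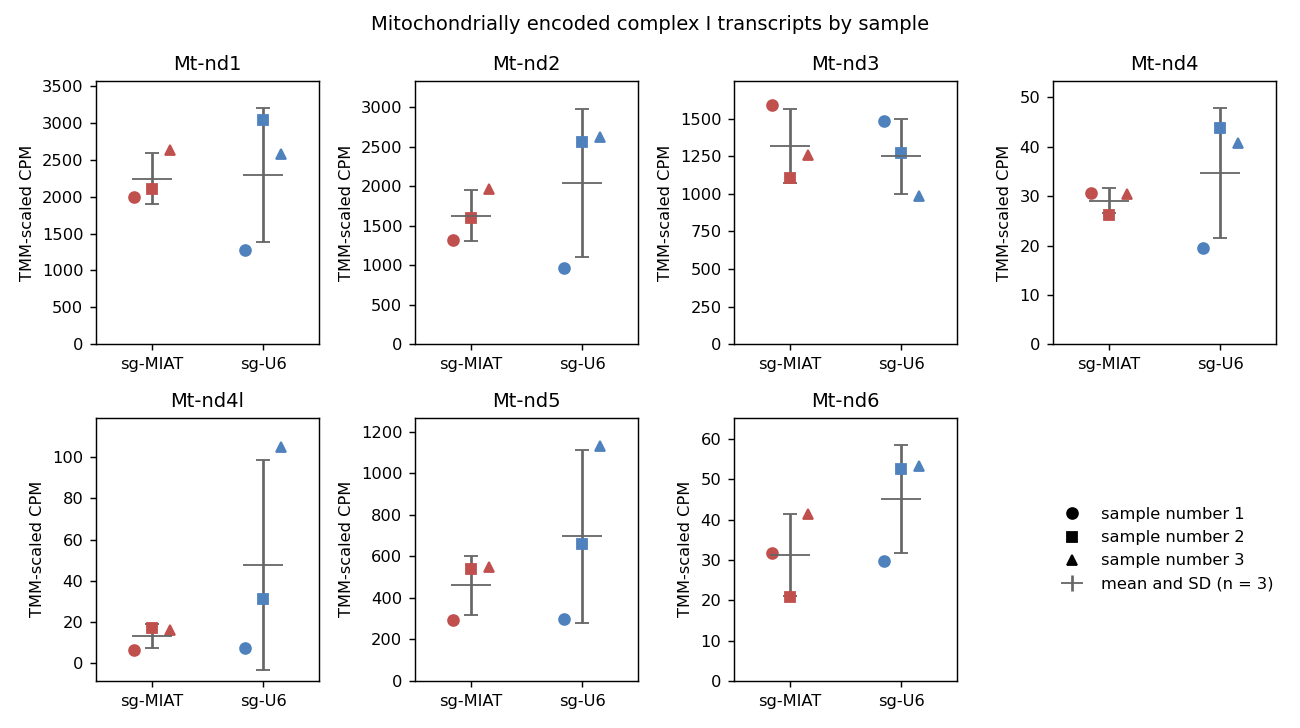
Level of each transcript in every sample, in TMM-scaled CPM on linear axes with a separate scale per gene (red sg-MIAT, blue sg-U6; symbols give the sample number; grey marks the mean and SD, n = 3). The groups overlap for all 7, and sg-U6 3 stands far above the rest for Mt-nd4l (105.1 CPM).

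The samples numbered 1 set much of the spread. Both lay below the other 4 libraries for Mt-nd1, Mt-nd2, Mt-nd4l and Mt-nd5 (4 of 7, beside 27.5% of all genes) and above them for Mt-nd3 (1 of 7, beside 25.2% of all genes). Mt-nd4 and Mt-nd6 did neither. The 2 libraries held 1 sample of each guide, and whether culture, library or RNA quality was involved was not tested.

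Compared within each number, the guides differed in opposite directions. Between the samples numbered 1, 5 of the 7 transcripts were higher in sg-MIAT, with a median log2 difference of 0.10, led by Mt-nd4 (0.65) and Mt-nd1 (0.65). Between the samples numbered 2 all 7 were lower in sg-MIAT, with a median of -0.67, from -0.20 for Mt-nd3 to -1.32 for Mt-nd6. Between those numbered 3, 5 of 7 were lower, with a median of -0.41 and the largest difference for Mt-nd4l (-2.69). Over all genes the medians were -0.0094, -0.0030 and 0.018 for numbers 1, 2 and 3, and 51.0%, 50.4% and 48.7% of genes were lower in sg-MIAT. Single libraries are compared here, so these differences carry no test.

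**Figure D3:**
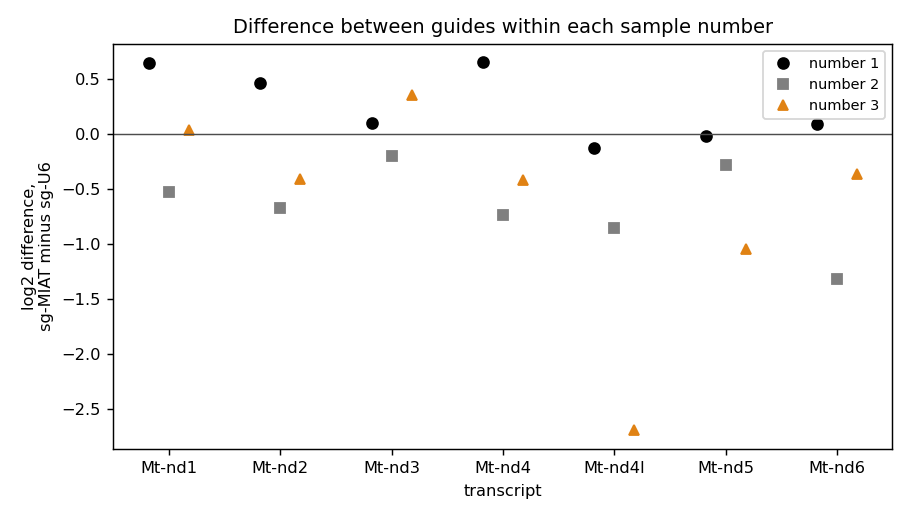
Log2 difference between the sg-MIAT and the sg-U6 library of the same number for each transcript (TMM-scaled log2 CPM, sg-MIAT minus sg-U6; 1 point per number). Number 1 points lie above 0 for 5 of 7, number 2 points lie below 0 for all 7, and the lowest point is Mt-nd4l in number 3 at -2.69.

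With both samples numbered 1 left out, the groups no longer overlapped for 5 of the 7, Mt-nd2, Mt-nd4, Mt-nd4l, Mt-nd5 and Mt-nd6, each lower in sg-MIAT, beside 21% of all genes with no overlap in that direction. The edgeR log2 fold changes of these 5 were -0.53, -0.57, -2.03, -0.71 and -0.76, while Mt-nd1 gave -0.24 and Mt-nd3 0.07. None was called: the adjusted edgeR p was 0.612 for each of the 5, 0 of 7 passed beside 0% of all genes, and 2 of 7 (Mt-nd4 and Mt-nd4l) had an unadjusted p under 0.05, beside 4.86% of all genes that were lower at that level. Leaving out sg-U6 1 alone put the unadjusted edgeR p of those same 5 transcripts under 0.05, beside 6.58% of all genes lower in sg-MIAT, with an adjusted p of 0.402 for each and 0 of 7 called, beside 0% of all genes. In either direction 1470 of 12363 genes had an unadjusted p under 0.05 in that fit. It kept sg-MIAT 1 but no control numbered 1, so guide and sample number cannot be told apart in it. Without sg-U6 3 instead, 0 of 7 had an unadjusted edgeR p under 0.05, beside 379 of 12232 genes in either direction.

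Ratios between transcripts of one library do not depend on scaling. Mt-nd1, Mt-nd2 and Mt-nd3 supplied most of the counts of the set: Mt-nd1 alone gave 37.9%, 38.8% and 40.6% under the MIAT guide and 31.3%, 39.7% and 34.3% under the control guide. Mt-nd3 supplied 30.2% and 36.4% in sg-MIAT 1 and sg-U6 1 but 13.1% to 20.4% in the other 4 libraries. Its counts were 1.20 and 1.54 times those of Mt-nd2 in the samples numbered 1, and 0.690, 0.640, 0.499 and 0.377 times in sg-MIAT 2, sg-MIAT 3, sg-U6 2 and sg-U6 3. The difference in the Mt-nd3 share between the guides (MIAT guide minus control) was 1.26 percentage points over all 6 libraries and 5.0 without both samples numbered 1, so it rested on which libraries were compared. Mt-nd3 thus kept no fixed proportion to Mt-nd2, a message of the same strand, across these libraries.

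**Figure D4:**
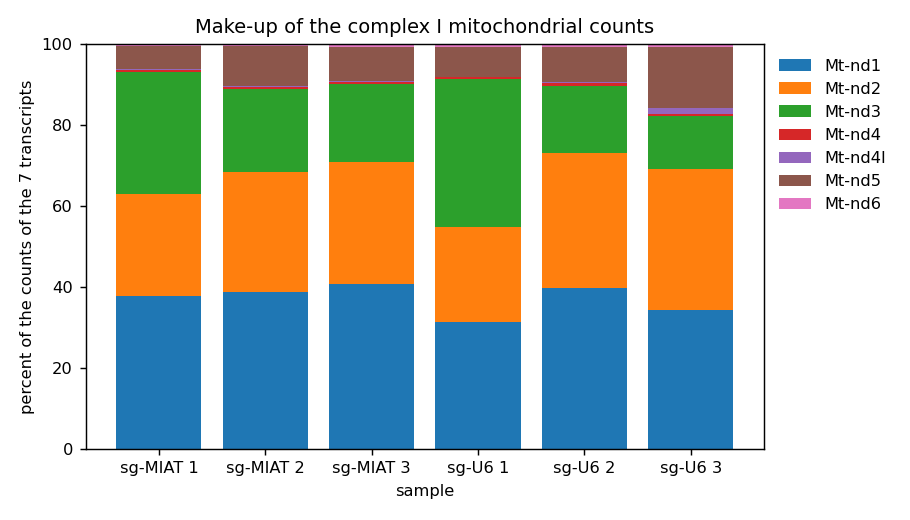
Share of each transcript in the summed counts of the 7, per sample (stacked percent of counts, not corrected for length). The Mt-nd3 segment is tallest in the samples numbered 1, 30.2% and 36.4%, and shortest in sg-U6 3, 13.1%.

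Mt-nd4l and Mt-nd4 share a message, yet their counts kept no fixed ratio. Mt-nd4l had 0.209, 0.649 and 0.531 counts per Mt-nd4 count under the MIAT guide and 0.361, 0.706 and 2.58 under the control guide, a 12.3-fold range. Of the 21 ratios between members the widest range, 26.4-fold, was that of Mt-nd3 over Mt-nd4l, and the narrowest, 1.37-fold, that of Mt-nd4 over Mt-nd1, which lay between 0.0115 and 0.0158 in all 6 libraries. Mt-nd2 over Mt-nd1 ranged 1.54-fold. Mt-nd4l varied least against Mt-nd5, 4.27-fold, from 0.0218 in sg-MIAT 1 to 0.0928 in sg-U6 3. The counting method is not given. How reads where Mt-nd4l and Mt-nd4 meet, or reads shared with nuclear copies of mitochondrial DNA, were assigned is therefore unknown.

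The share of the light-strand message in the set did not overlap between the groups, which held for 1 of the 7 shares. The level of 9.04% of all genes showed no overlap either, but no such background was computed for shares. The count of 1 in 7 is therefore given as a description only. Mt-nd6 made up 0.602%, 0.387% and 0.636% of the summed counts under the MIAT guide and 0.730%, 0.687% and 0.710% under the control guide. Group means were 0.542% ± 0.135 and 0.709% ± 0.0216 (SD, n = 3). The gap was narrow where the groups came closest: the exact binomial 95% interval of sg-MIAT 3, 0.590% to 0.685%, overlapped that of sg-U6 2, 0.639% to 0.738%. Among the 21 ratios between single members, groups did not overlap for 1, Mt-nd1 over Mt-nd6. These ratios depend on one another, and no background was computed for them. The share was not tested, and 3 samples against 3 could not have reached an exact p under 0.1. Against the other 6 transcripts, Mt-nd6 had 0.389 to 0.640 counts per 100 in sg-MIAT and 0.692 to 0.735 in sg-U6. Without both samples numbered 1, the difference in the Mt-nd6 share (MIAT guide minus control) was -0.187 percentage points, against -0.167 with all 6 libraries. With 1 library left out, it ran from -0.214 (without sg-MIAT 3) to -0.0897 (without sg-MIAT 2, the library with the lowest share).

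**Figure D5:**
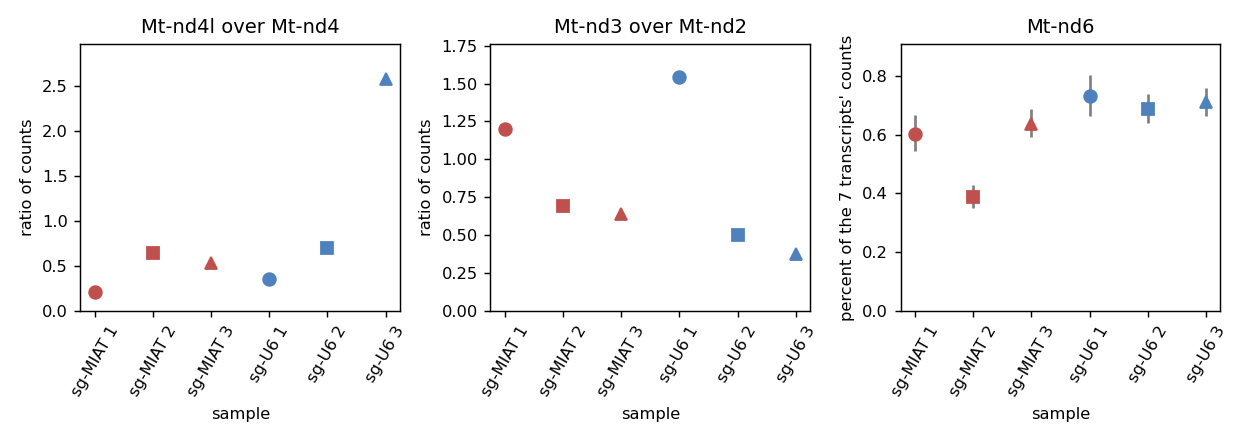
Ratios within each library: Mt-nd4l over Mt-nd4 counts, Mt-nd3 over Mt-nd2 counts, and Mt-nd6 as a percent of the counts of the 7 with exact binomial 95% intervals as lines (red sg-MIAT, blue sg-U6; symbols as sample numbers). Mt-nd4l over Mt-nd4 is highest in sg-U6 3 at 2.58, and the Mt-nd6 shares of sg-MIAT (at most 0.636%) and of sg-U6 (at least 0.687%) do not overlap, while the intervals of sg-MIAT 3 and sg-U6 2 do.

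Of the other 12037 tested genes, ENSRNOG00000007493 and ENSRNOG00000022499 followed the mean log2 level of the 7 transcripts most closely over the 6 samples (Pearson's r = 0.998 and 0.996), and ENSRNOG00000018023 and ENSRNOG00000017895 ran most nearly opposite to it (r = -0.997 and -0.997). ENSRNOG00000007493 ranged from 2.82 CPM in sg-U6 1 to 9.50 CPM in sg-U6 3, and ENSRNOG00000017895 from 2229 CPM down to 1320 CPM in the same 2 libraries. Such likeness was common, since 821 genes (6.82%) had r above 0.9. The values describe 6 libraries that share the structure given above and carry no test. The mean was of unscaled log2 levels, so Mt-nd4l, with its 16.4-fold range, moved it most. Mt-nd3 was highest in the samples numbered 1, where that mean was lowest.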

How the data were processed

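Raw counts per Ensembl gene were deposited by the authors, 1 column per sample. A second table, named by the authors for FPKM, holds deposited CPM without gene length. Whole reads were recovered from 99.985% of its values above 0 (tolerance 0.01), and the main test on them called 0 genes. Per the submitters' processing notes, HISAT2, DESeq2 and the build Rnor_6.0 were used, in roles not stated. Per the labels' protocols, libraries were made by oligo(dT) selection with a dUTP second strand. The counter and its strand setting are not stated.

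Counts were fitted over the whole table with edgeR 4.0.16 (R 4.3.3; quasi-likelihood F test, TMM scaling, default filter with a minimum count of 10 and total of 15, Benjamini-Hochberg adjustment, threshold 0.05). SEs are log2 fold changes over the square root of the F statistic, and 95% intervals use the fit's degrees of freedom. Log2 levels had a prior count of 2. DESeq2 1.42.0, limma 3.58.1 (voom, and trend on log2 CPM plus 1 or 0.1, mean CPM at least 0.5), other scalings and filters, a replicate block and left-out samples were alternatives. Scripts were tested on simulated data. Both groups are numbered 1 to 3. Over 12044 genes, deviations from the group mean correlated between samples sharing number 1, 2 or 3 at 0.730, 0.126 and 0.334. The likeness was mainly that of the samples numbered 1. These values are not independent, since deviations within a group are taken from a shared mean, and cannot decide whether samples were paired. The labels state no pairing, so the block was run only as an alternative.

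The 7 genes, the gene lists and the tests were chosen with earlier results of these data known. All 7 are named. Other genes are named only as the 2 most and the 2 least like the mean of the 7. Lists of nuclear complex I genes, mitochondrial RNA factors and cell type markers were set out but not analysed here, since the reference table, of another assembly (GRCr8), pairs no identifier with a symbol. Counts carry no molecular identifiers, so intervals on counts cover counting error only.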

Additional observations from a re-analysis of the deposited data

How the results depend on the processing

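In all 20 alternatives 0 of the 7 transcripts were called, and the smallest adjusted p of any was 0.215, for Mt-nd4l in DESeq2 with the replicate block. Over all genes DESeq2 called 60, or 130 with the replicate block, and the edgeR, limma-voom and limma-trend fits called 0, including edgeR with the block. The block changed no call among the 7. The median log2 fold change of the 7, -0.33, ran from -0.66 (without sg-U6 1) to -0.11 (without sg-U6 3) over the fits that left out 1 library, and was -0.21 in edgeR with the block. The difference in the summed share of counts, -0.106 percentage points, ran from -0.245 (without sg-U6 1) to -0.0349 (without sg-U6 3). Of 140 fold changes under alternatives 9 changed sign; the cause was not tested. For Mt-nd1 the value turned positive in limma-voom (0.048), in edgeR and DESeq2 with the replicate block (0.049 and 0.055) and when any of 4 libraries was left out, with a range over the 6 left-out libraries from -0.316 (without sg-U6 1) to 0.222 (without sg-U6 2). For Mt-nd3 it turned negative when sg-MIAT 1 or sg-U6 3 was left out, within a range from -0.088 (without sg-MIAT 1) to 0.227 (without sg-U6 1). Levels per coding length were not run. The fit on recovered reads was added after seeing the data.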
